A study of Mus musculus with 88 samples.

Results

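The spleen of wild type (WT) mice was compared with 8 other tissues of WT mice by bulk RNA sequencing. The samples were chosen by their labels alone: 4 WT spleen libraries, each from 1 mouse, stood against 39 WT libraries of EDL, gastrocnemius, soleus and tibialis (4 limb muscles), heart, kidney, liver and lung, with each tissue given equal weight. These 43 libraries are part of 88, from 10 mice and 9 tissues. Spleens of 5 mice labelled Cdh15 KO, and 40 libraries of the other tissues of KO mice, served as a repeat. Cdh15 encodes M-cadherin, a cell adhesion protein of muscle, and the series asks what its loss does to muscle. All mice were male, of the C57BL/6NTac strain, 65 to 85 days old and fasted for 18 h, so that every level given here is a level after fasting. The labels do not describe the KO allele. A WT spleen of mouse 3805657 and a WT kidney of mouse 3793543 were not analysed here.

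The spleen filters blood and holds white pulp, the lymphocyte follicles and T cell zones around its arterioles, inside red pulp, where macrophages clear old red blood cells and recycle their iron. A marginal zone of specialised B cells and macrophages lies between them. In mice, unlike in adult humans, the red pulp also goes on making red blood cells and platelets in adult life, under the control of transcription factors such as GATA1 and KLF1. The organ is built by mesenchyme that depends on a small set of transcription factors, among them TLX1, NKX2-5, NKX2-3, WT1 and TCF21.

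The deposited tables hold estimated read counts and RPKM (reads per kilobase of exon, scaled to library size). KO spleen libraries held 8656011 to 14960475 counts and WT spleen libraries 8205964 to 18471204, against 8305744 to 25144410 in the other WT tissues. Levels below are RPKM, or CPM (counts scaled to library size, with no length) for sums over genes. Differences are log2 fold changes from edgeR's quasi-likelihood test, of spleen over the mean of the 8 other tissues unless a tissue is named. They were computed after TMM scaling, which sets aside the few very abundant genes of muscle and liver. The TMM factors averaged 1.91 in WT spleen, against 2.12 in WT lung, 0.97 in heart, 0.77 in liver and 0.71 in gastrocnemius, so a ratio of RPKM values between spleen and muscle or liver is larger than the fitted fold change. With libraries scaled by their totals alone, the median log2 fold change of the 16842 genes tested was 0.94, against -0.06 after TMM scaling, and this shift applies to every gene and list below. Cdh15 itself cannot check the genotype here, since it was listed at 0 to 0.0235 RPKM in KO spleen and at 0 to 0.0255 RPKM in WT spleen.

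2 of the 9 spleen libraries stood apart from the others, KO mouse 3817943 and WT mouse 3805673. Mitochondrially encoded genes took 9.21% of the counts in KO mouse 3817943 and 13.9% in WT mouse 3805673, against 4.42% to 5.23% in the other 7 spleens. Rpl26, which encodes a ribosomal protein, had 735 CPM in KO mouse 3817943 and 807 CPM in WT mouse 3805673, and no read in the other 7 spleens or in any of the 79 libraries of other tissues. The gene model Gm15772 showed the reverse, with no read in these 2 libraries and 820 to 954 CPM in the other 7 spleens. Gm15772 had 95.0 to 532 CPM in the 79 libraries of other tissues, none of which had a read of Rpl26. Whether reads of Rpl26 were counted under Gm15772 was not tested. A library without Rpl26 reads is therefore not shown to lack Rpl26 RNA. Xkrx had 2372 CPM in KO mouse 3817943 and 5359 CPM in WT mouse 3805673, against 30.4 to 64.5 CPM in the others. Of 7681 well-measured genes, 57 (0.742%) in KO mouse 3817943 and 266 (3.46%) in WT mouse 3805673 lay more than 2-fold from the median of the other 8 spleens, against 6 to 26 genes in the others. Over these genes the 2 libraries correlated with each other at Pearson's r of 0.982 and with the spleens as a whole at median r of 0.946 (KO mouse 3817943) and 0.919 (WT mouse 3805673). The labels give no batch, date or run that sets these libraries apart, and the cause was not tested. The counts and values below include both libraries. The plot of the library measures by mouse shows the split.

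**Figure D1:**
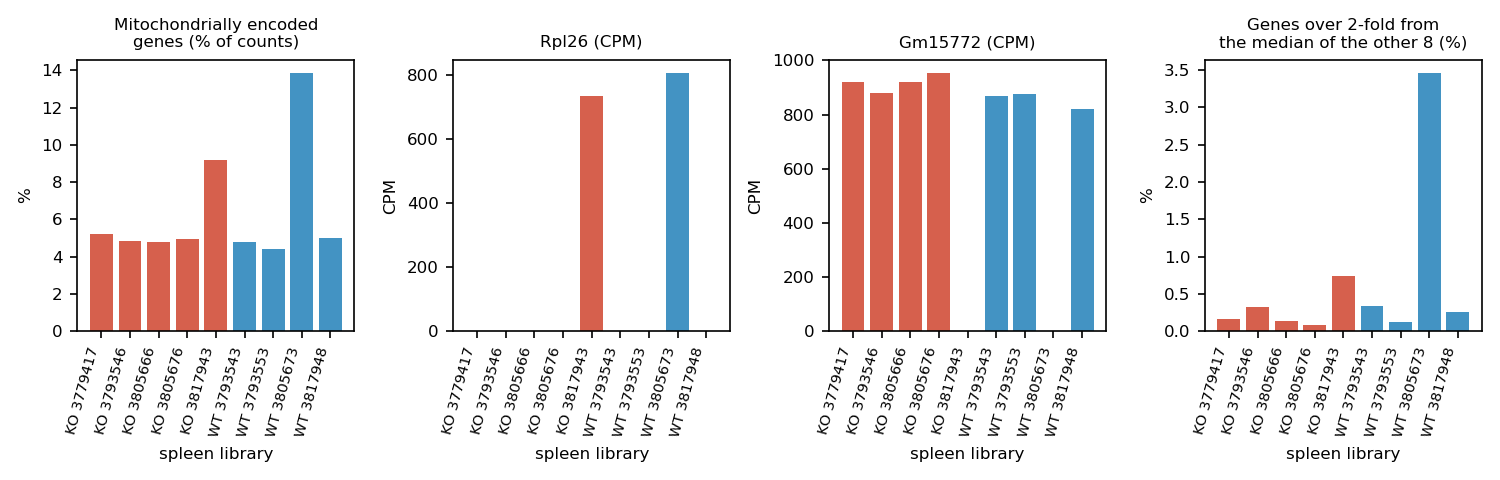
Bars give, for each of the 9 spleen libraries (KO in red, WT in blue, labelled by mouse), the percent of counts from mitochondrially encoded genes, the CPM of Rpl26 and of Gm15772, and the percent of 7681 genes over 2-fold from the median of the other 8 spleens. KO mouse 3817943 and WT mouse 3805673 are the only bars above 0 for Rpl26 and the only ones at 0 for Gm15772.

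In WT mice, 6987 of 16842 genes tested (41.5%) were higher in spleen than the mean of the 8 other tissues and 6438 (38.2%) were lower, at an edgeR adjusted p under 0.05. With library totals alone the split was 10939 higher and 3040 lower. A gene was called highest of 9 tissues when spleen exceeded each of the 8 others at an adjusted p under 0.05 and a log2 fold change of at least 1. WT spleen was highest for 1731 genes (10.3%) and lowest, by the same rule in reverse, for 577 (3.43%). The 1731 genes took 22.9% to 25.1% of the counts of each WT spleen library, against 6.50% to 6.77% in WT lung and 1.07% to 6.77% over all other WT libraries. Lung was the tissue nearest to spleen for 1100 of the 1731 genes (63.5%), followed by liver (185), kidney (154) and heart (112). Spleen exceeded lung for 7280 genes (43.2%) and lay below it for 6135 (36.4%). The order of the tissues by genes at least 2-fold higher in spleen ran from lung (3560) through kidney (4168) and heart (4403) to liver (5516).

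The KO mice gave nearly the same lists. In KO mice, 7036 of 16710 genes (42.1%) were higher in spleen and 6539 (39.1%) lower. KO spleen was highest for 1677 genes (10%) and lowest for 584 (3.49%). It exceeded KO lung for 7287 genes (43.6%) and lay below it for 6171 (36.9%). Of the highest genes, 1588 were shared, which is 94.7% of the KO list and 91.7% of the WT list. Of the lowest genes, 500 were shared, 85.6% of the KO list and 86.7% of the WT list. Among 16639 genes tested in both genotypes, 1 was called in opposite directions, Rnaset2b, which encodes a ribonuclease and has a near-identical copy, Rnaset2a, so its counts are uncertain. Rnaset2b had 36.0, 53.7, 31.2, 41.0 and 40.4 RPKM in KO spleens and 189, 38.0, 56.6 and 147 RPKM in WT spleens. Of the 4 WT spleens, 3 were above the KO range, and the difference between the genotypes' contrasts did not pass (log2 difference -1.47, SE 0.35, adjusted p = 0.988).

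Gene lists for the cells and structures of the spleen were set beside these shares. A gene that is measurable in spleen alone can pass the filter on low counts through spleen alone and then has to be higher there, so the counts per list describe the lists and do not test them. In these whole-tissue libraries, fewer cells of a type and less RNA per cell cannot be told apart.

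**Figure D2:**
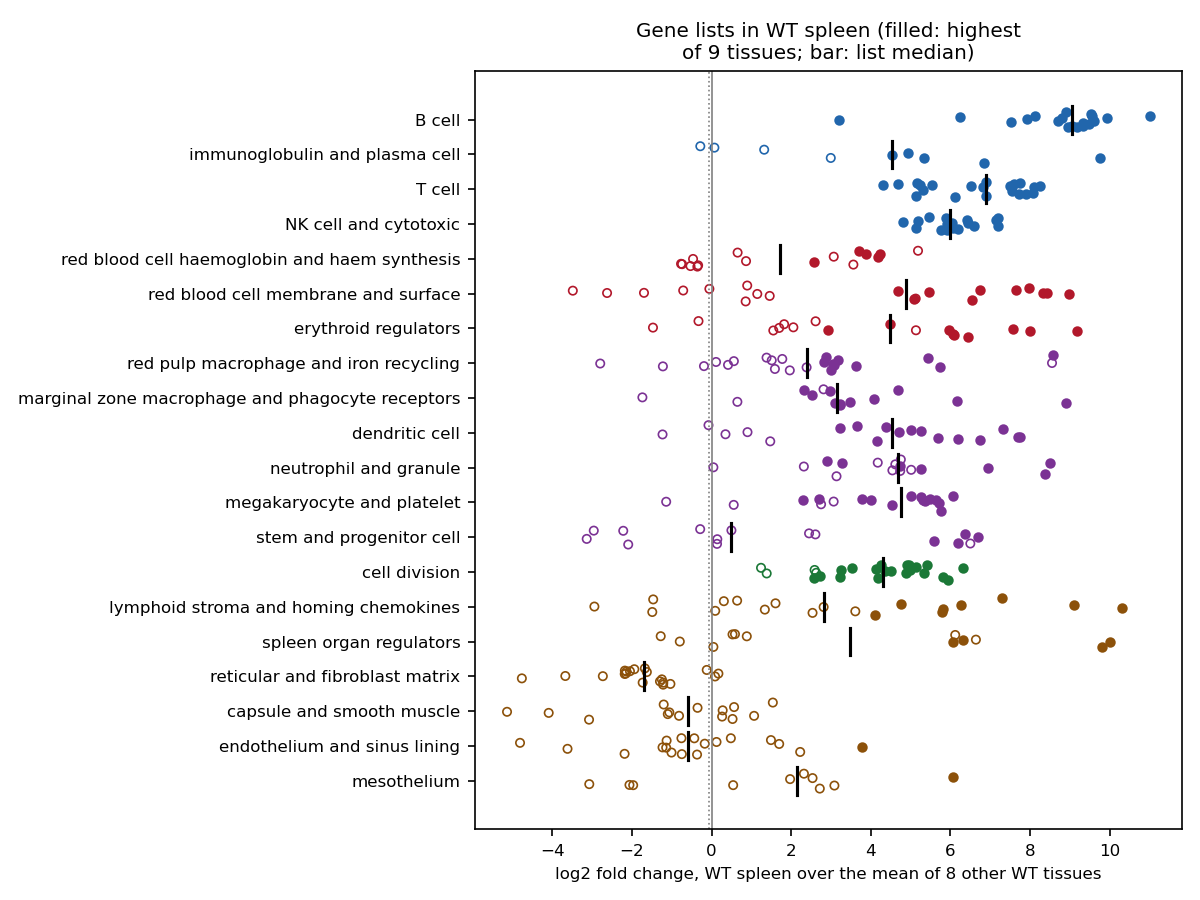
Each circle is 1 gene of the list named on the left, placed at its log2 fold change of WT spleen over the mean of the 8 other WT tissues. Filled circles were called highest of 9 tissues, black bars are list medians and the dotted line is the median of all genes tested; all B cell, T cell and NK cell circles are filled and the positive circles of the fibroblast matrix list, Mfap4 at 0.17 and Pdgfrb at 0.09, are the highest of that list.

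B cell genes had the largest median difference of the lists. All 19 genes of the B cell list passed the filter, and all 19 were called higher than the mean of the other tissues and highest of 9, with a median log2 fold change of 9.07 in KO mice and 9.06 in WT mice. Cr2 (chromosome 1, 195136811 to 195176715, mm10), the complement receptor of follicular and marginal zone B cells, had 115, 81.7, 91.0, 106 and 87.4 RPKM in KO spleens and 92.2, 109, 112 and 95.5 RPKM in WT spleens, here and below in the order KO mice 3779417, 3793546, 3817943, 3805676 and 3805666 and WT mice 3793543, 3817948, 3805673 and 3793553. The KO and WT spleens overlapped for Cr2, and every one lay above the 0.903 ± 0.205 RPKM of WT lung (SD, n = 5), the next tissue. Its log2 fold change in WT mice was 11.01 ± 0.10 (SE), and 6.95 against lung alone.

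Cd79a, a signalling chain of the B cell receptor, had 1146, 1005, 1432, 978 and 990 RPKM in KO spleens and 1035, 1049, 1162 and 1014 RPKM in WT spleens, against 28.1 ± 9.95 RPKM in WT lung (SD, n = 5). Its log2 fold change in WT mice was 9.54 ± 0.09 (SE). Fcmr, the Fc receptor for IgM, had 274, 289, 435 and 287 RPKM in WT spleens, with WT mouse 3805673 the highest. The B cell gene nearest to the other tissues was Ebf1, a transcription factor that B cells share with fat and stromal cells, at 39.3, 39.7, 56.5 and 33.7 RPKM in WT spleens against 5.15 ± 0.556 RPKM in WT heart (SD, n = 5). Fcrl5, a receptor of marginal zone B cells, was among the 10 largest differences of genes at 10 CPM or more. It had no read in 2 of the other tissues, and its log2 fold change was 9.004 with a floor of 3 reads per library there (9.96 ± 0.16, SE, as fitted).

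Of 9 plasma cell genes that could be analysed, 7 were higher, 1 was lower and 5 were highest of 9, with a median of 4.53, or 3.97 with genes at 0 in a tissue set at their bound. Library totals alone made all 9 higher. Jchain, which encodes the joining chain of IgM and IgA polymers, had 1020, 870, 717, 654 and 921 RPKM in KO spleens and 980, 752, 548 and 980 RPKM in WT spleens, against 3.05 ± 1.57 RPKM in WT lung (SD, n = 5). No other tissue came near these levels, and the log2 fold change was 9.77 ± 0.14 (SE). Mzb1, a chaperone of antibody secretion, differed by 6.84. The plasma cell receptor Tnfrsf17 differed by 3.97, with the 1 tissue that had no read of it at the floor. Sdc1, the surface marker syndecan-1, went the other way: it had 8.71, 6.18, 3.38 and 8.29 RPKM in WT spleens and 79.7 ± 2.67 RPKM in WT lung, whose epithelium also makes it. Its log2 fold change of -0.28 lost the call without WT mouse 3805673 (-0.10) and turned positive with library totals alone (0.75). The constant genes of immunoglobulins and of the T cell receptor were not analysed here.

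T cell genes formed the other large lymphoid group. All 21 analysed T cell genes, of 24 listed, were higher and highest of 9, with a median log2 fold change of 7.24 in KO mice and 6.90 in WT mice. Cd3e, a signalling chain of the T cell receptor, had 55.7, 45.3, 86.2, 61.2 and 60.3 RPKM in KO spleens and 58.7, 56.3, 101 and 59.8 RPKM in WT spleens, against 2.11 ± 0.459 RPKM in WT lung (SD, n = 5). The 2 highest spleens were the 2 libraries that stood apart, and no spleen overlapped lung. Lck, the kinase that starts T cell receptor signalling, had 88.3, 78.6, 64.2 and 92.6 RPKM in WT spleens and a log2 fold change of 7.72 ± 0.15 (SE). Foxp3, the factor of regulatory T cells, differed by 6.90, Cd4 by 7.51 and Cd8a by 6.90. The smallest difference was that of Cd28, a co-stimulatory receptor, at 4.31 ± 0.13 (SE), with heart rather than lung as the next tissue.

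All 18 genes of the natural killer and cytotoxic cell list were higher in WT spleen and highest of 9, with a median of 5.99. In KO mice 17 passed the filter, and all 17 were called the same way. Ccl5, a chemokine of cytotoxic cells, had 185, 166, 177 and 214 RPKM in WT spleens against 18.1 ± 5.12 RPKM in WT lung (SD, n = 5). Nkg7, a granule protein, had 57.0, 47.1, 27.5 and 61.7 RPKM, with WT mouse 3805673 the lowest. The list's median against lung alone was 2.86, compared with 4.21 for T cell genes and 5.03 for B cell genes, so lung came closer to spleen in cytotoxic genes than in B cell genes by these medians.

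Summed over the list, B cell genes reached 8258, 7254, 7786, 7584 and 7526 CPM in KO spleens and 7856, 7938, 7410 and 7722 CPM in WT spleens, against 286 ± 37.9 CPM in WT lung (SD, n = 5). Spleens of the 2 genotypes overlapped, and their spread was small, with a coefficient of variation of 4.87% in KO and 3.003% in WT spleens. T cell genes summed to 1687 ± 205 CPM in KO spleens (SD, n = 5) and 1718 ± 91.5 CPM in WT spleens (SD, n = 4), against 100 ± 4.13 CPM in WT lung (SD, n = 5). After lung, WT heart held the most B cell RNA, at 36.5 ± 3.46 CPM (SD, n = 5), and WT kidney the most T cell RNA, at 20.4 ± 3.02 CPM (SD, n = 4).

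**Figure D3:**
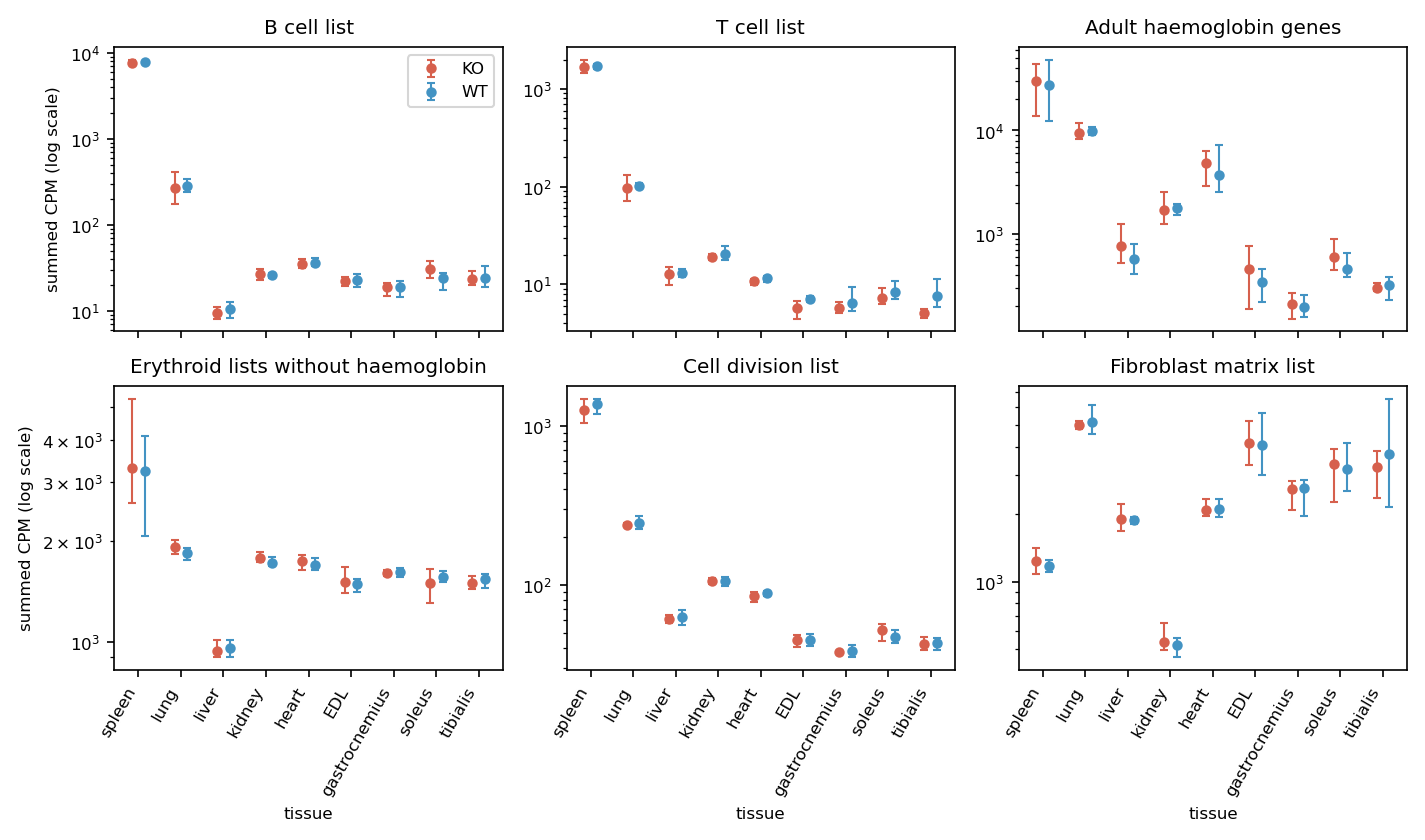
Points are the mean summed CPM of 6 gene sets in each tissue, on log axes, with KO in red left of WT in blue and bars from the lowest to the highest library (n = 4 or 5). Spleen lies above every other tissue for B cell, T cell, haemoglobin, erythroid and cell division genes, and below all but kidney for fibroblast matrix genes; its bars are narrow for lymphocyte genes and wide for both erythroid sets.

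Erythroid genes split by role. Of 20 genes of the red blood cell membrane and surface, 15 were higher in WT spleen, 4 were lower and 10 were highest of 9, with a median of 4.88 (4.76 with genes at 0 set at their bound). The KO mice gave the same counts. Slc4a1, the anion exchanger band 3, had 49.3, 181, 62.9, 39.2 and 59.5 RPKM in KO spleens and 30.1, 135, 56.2 and 85.0 RPKM in WT spleens, against 9.29 ± 0.654 RPKM in WT kidney (SD, n = 4), which makes a kidney form of the protein. Its levels spread widely among spleens and still did not overlap kidney, with a log2 fold change of 7.65 ± 0.18 (SE). The blood group genes Kel and Rhd had no read in 3 of the other tissues. With a floor of 3 reads per library there, they were higher by log2 fold changes of 6.70 and 6.68 (8.44 ± 0.31 and 8.31 ± 0.36, SE, as fitted). The lower members have wide use outside red blood cells: Aqp1, a water channel also of lung and kidney vessels, at -2.63, the capping protein gene Tmod1 at -3.49, Sptb at -1.70 and Ank1 at -0.71. With the limb muscles averaged to 1 tissue Sptb turned to 0.15 and Ank1 to 1.29, and with library totals alone Ank1 turned to 0.30.

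Among 16 genes of haemoglobin and haem synthesis, 10 were higher and 6 lower in WT spleen, with a median of 1.72, and library totals alone made all 16 higher. Alas2, the erythroid form of the first enzyme of haem synthesis, had 187, 370, 108, 283 and 300 RPKM in KO spleens and 100, 237, 152 and 390 RPKM in WT spleens, against 55.0 ± 3.46 RPKM in WT lung (SD, n = 5). The lowest spleens of both genotypes were close to each other and above every lung library, and the log2 fold change was 3.88 ± 0.15 (SE). The 6 lower genes were Fech, Alad, Abcb10, Uros, Urod and Cpox, at -0.34 to -0.77. They serve haem synthesis in all tissues. With library totals alone all 6 turned, to 0.24 to 0.67. The adult haemoglobin genes, counted together because reads moved between the near-identical copies Hba-a1 and Hba-a2 from library to library, summed to 22564, 43472, 13872, 33098 and 37709 CPM in KO spleens and 12368, 27164, 22836 and 48014 CPM in WT spleens. WT lung had 9785 ± 611 CPM (SD, n = 5), below every spleen. Circulating young red blood cells carry haemoglobin RNA, so the share of it from blood in the organ cannot be told apart from that of developing cells.

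Of 17 analysed erythroid regulators, 15 were higher in WT spleen, 2 lower and 9 highest of 9, with a median of 4.48. Gata1, the transcription factor of red cell and platelet precursors, had 3.30, 6.93, 2.49, 2.71 and 2.92 RPKM in KO spleens and 2.48, 6.34, 2.53 and 4.24 RPKM in WT spleens, against 0.212 ± 0.0784 RPKM in WT lung (SD, n = 5). Klf1, the activator of the adult globin genes, had 3.06, 12.0, 3.57, 2.31 and 5.05 RPKM in KO spleens and 2.08, 10.4, 4.36 and 6.63 RPKM in WT spleens, against 1.35 ± 0.322 RPKM in WT liver (SD, n = 5). Spleen did not overlap liver in RPKM, but after TMM scaling Klf1 exceeded liver by only 0.78 and so was not called highest. Hemgn, a nuclear protein of blood precursors, gave the largest difference of the list at 9.19. Epor, the erythropoietin receptor, differed by 2.61 ± 0.20 (SE). Tfrc, the transferrin receptor for iron uptake, had 15.9, 30.7, 9.29 and 19.6 RPKM in WT spleens and did not differ beyond its error from the mean of the other tissues (-0.06 ± 0.18 SE, adjusted p = 0.826). Foxo3 and Mxi1, both used in many tissues, were the 2 lower regulators, and Foxo3 turned to 0.68 with library totals alone.

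The start regions of erythroid genes were searched for AGATAA, a short form of the sequence that GATA factors bind, on either strand, in RefSeq windows of 250 bases before to 50 after the start of the gene (GRCm38.p6). Windows were found for 38 of the 53 analysed erythroid genes. The motif was in 12 of 49 windows (24.5%), against 3672 of 32851 windows of all genes (11.2%). Shares differed between the lists of other cells. Some were like the erythroid share or higher: 5 of 14 windows (35.7%) for megakaryocyte, 3 of 10 (30%) for kidney tubule and 3 of 11 (27.3%) for endothelial genes. Exocrine pancreas genes had 4 of 16 (25%) and heart muscle genes 3 of 12 (25%). The endothelial list shares Tal1, which has a match, with the erythroid lists. Other lists had no match, among them B cell (0 of 17 windows), NK cell (0 of 19), red pulp macrophage (0 of 18) and fibroblast matrix genes (0 of 15). The search was made after the values were seen, and a match is a description and not a binding site. In 5 genes a match lay within 100 bases before the start. These 5 windows were chosen by that position, so the stretch they share follows from the choice. Capitals mark the motif, read as TTATCT where it is on the other strand.
Alas2 (chrX:150547167-150547466, plus strand): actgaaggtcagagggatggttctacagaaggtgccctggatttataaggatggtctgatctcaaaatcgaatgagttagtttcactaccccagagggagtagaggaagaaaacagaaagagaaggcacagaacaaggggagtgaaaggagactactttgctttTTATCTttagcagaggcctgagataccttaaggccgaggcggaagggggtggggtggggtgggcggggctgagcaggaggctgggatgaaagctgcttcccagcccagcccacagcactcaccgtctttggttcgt
Rhd (chr4:134864286-134864585, plus strand): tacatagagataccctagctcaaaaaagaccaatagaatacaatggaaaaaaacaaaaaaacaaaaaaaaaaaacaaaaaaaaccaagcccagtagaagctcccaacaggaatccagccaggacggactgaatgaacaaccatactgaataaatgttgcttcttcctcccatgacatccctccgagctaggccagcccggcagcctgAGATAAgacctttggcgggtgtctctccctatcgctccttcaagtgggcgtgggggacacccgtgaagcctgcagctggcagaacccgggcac
Kel (chr6:41704276-41704575, minus strand): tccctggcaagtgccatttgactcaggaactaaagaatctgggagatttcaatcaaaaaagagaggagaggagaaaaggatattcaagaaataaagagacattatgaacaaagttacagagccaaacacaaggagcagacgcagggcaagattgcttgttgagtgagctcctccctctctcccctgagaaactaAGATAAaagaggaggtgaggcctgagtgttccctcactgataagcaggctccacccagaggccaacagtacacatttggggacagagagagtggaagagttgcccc
Icam4 (chr9:21029182-21029481, plus strand): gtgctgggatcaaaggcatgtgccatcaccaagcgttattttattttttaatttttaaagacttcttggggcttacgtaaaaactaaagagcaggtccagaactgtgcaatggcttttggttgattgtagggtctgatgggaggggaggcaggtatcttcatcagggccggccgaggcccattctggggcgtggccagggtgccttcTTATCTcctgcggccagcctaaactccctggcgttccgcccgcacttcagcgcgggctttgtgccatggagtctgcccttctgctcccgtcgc
Epor (chr9:21963527-21963826, minus strand): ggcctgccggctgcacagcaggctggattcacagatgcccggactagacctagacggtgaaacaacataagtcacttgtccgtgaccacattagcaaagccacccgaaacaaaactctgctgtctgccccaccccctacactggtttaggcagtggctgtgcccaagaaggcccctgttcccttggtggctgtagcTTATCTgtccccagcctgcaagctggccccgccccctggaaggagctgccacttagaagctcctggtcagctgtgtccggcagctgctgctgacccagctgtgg
The match starts 86 bases before the start of Alas2, 43 before Rhd, 56 before Kel, 43 before Icam4 and 54 before Epor. All 5 genes were higher in WT spleen. So were most genes of the erythroid lists (10 of 16, 15 of 20 and 15 of 17), and this does not set the 5 apart. Their differences ran from 1.15 ± 0.33 (SE) for Icam4, an adhesion molecule of red blood cells, to 6.70 for Kel with its tissues without reads at the floor. Icam4 had 0.788, 4.13, 1.11, 1.24 and 2.04 RPKM in KO spleens and 0.656, 2.69, 0.197 and 1.60 RPKM in WT spleens, overlapped other tissues, and lost the call without WT mouse 3817948 (0.55).

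Summed erythroid genes varied widely between spleens. The erythroid lists without haemoglobin summed to 2606, 5296, 2594, 2771 and 3243 CPM in KO spleens and 2067, 4108, 2815 and 3924 CPM in WT spleens. Their coefficients of variation were 34.7% in KO spleens and 29.8% in WT spleens. By list, the coefficient was 47.7% in KO spleens and 37.8% in WT spleens for membrane genes, but 18.9% and 10.8% for erythroid regulators. It was 4.87% in KO spleens and 3.003% in WT spleens for B cell genes, 12.2% and 5.32% for T cell genes, 10.4% and 11.2% for NK cell genes and 13.2% and 23.2% for plasma cell genes. The WT spread of the regulators was thus below that of NK and plasma cell genes, and differences in spread were not tested. KO mouse 3793546 was highest of the KO spleens for Slc4a1, Gata1, Klf1, Rhd and Kel, and WT mouse 3817948 was highest of the WT spleens for the same genes. WT mouse 3793543 was lowest of the WT spleens for Slc4a1, Gata1, Klf1 and Kel. Alas2 and haemoglobin had another order in WT spleens, with WT mouse 3793553 the highest. The 2 spleens highest in membrane genes are not the 2 libraries that stood apart.

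**Figure D4:**
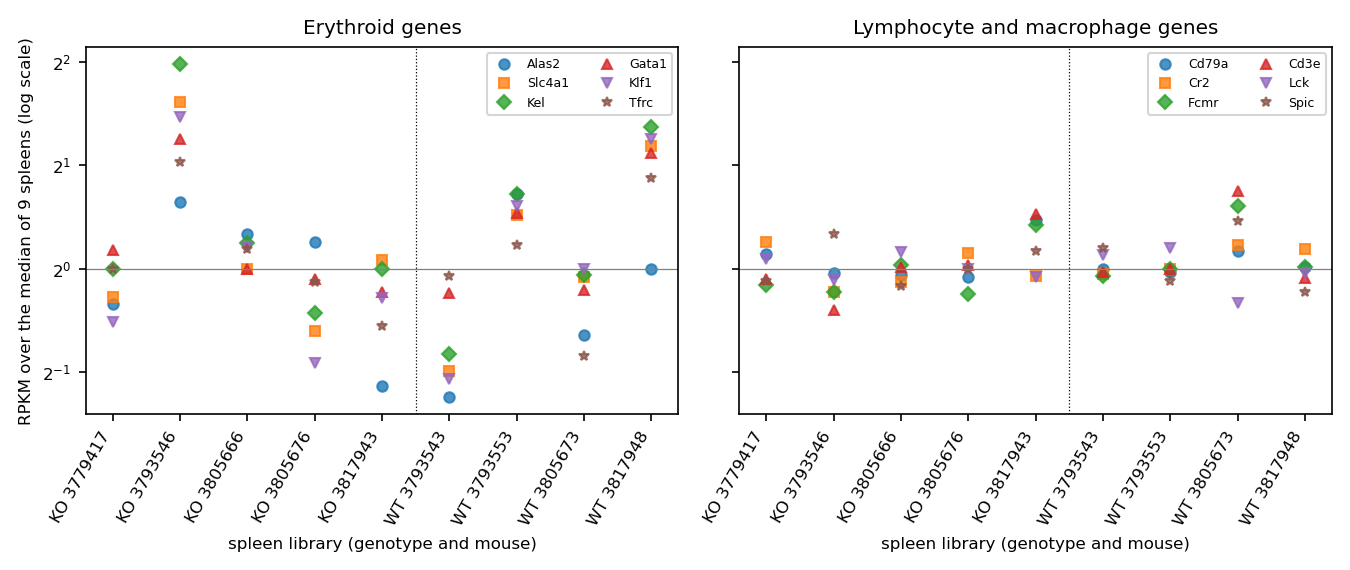
Each point is the RPKM of 1 gene in 1 spleen library over the median of the 9 spleens, on a log axis, with KO mice left of WT mice. Erythroid genes on the left spread widely. Slc4a1, Kel, Gata1 and Klf1 are high in KO mouse 3793546 and WT mouse 3817948, while Alas2 lies at 1 in WT mouse 3817948. Most lymphocyte and macrophage genes on the right stay near 1 except in KO mouse 3817943 and WT mouse 3805673.

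Most red pulp macrophage and iron recycling genes were higher in spleen. Of 23 genes, 19 were higher in WT spleen, 3 lower and 10 highest of 9, with a median of 2.23 in KO mice and 2.39 in WT mice. Spic (chromosome 10, 88675270 to 88683023), the transcription factor that red pulp macrophages require, had 58.2, 79.5, 71.2, 63.1 and 56.3 RPKM in KO spleens and 72.3, 53.9, 87.1 and 58.0 RPKM in WT spleens, against 0.572 ± 0.291 RPKM in WT liver (SD, n = 5). KO and WT spleens overlapped, far above liver, and the log2 fold change was 8.58 ± 0.14 (SE). Vcam1, an adhesion molecule of these macrophages and of stroma, had 225, 197, 227 and 210 RPKM in WT spleens and a log2 fold change of 5.44 ± 0.07 (SE). Itgad, the integrin alpha D chain, had 36.7, 31.1, 17.7 and 30.8 RPKM in WT spleens. It had no read in 2 of the other tissues, and its log2 fold change was 9.63 with those at the floor (10.65 ± 0.16, SE, as fitted).

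Hmox1, the haem-degrading enzyme, had 207, 169, 185 and 195 RPKM in WT spleens against 30.7 ± 7.11 RPKM in WT kidney (SD, n = 4), and differed by 2.88 ± 0.25 (SE). Slc40a1, the iron exporter ferroportin, had 135, 116, 59.8 and 110 RPKM in WT spleens against 42.0 ± 6.01 RPKM in WT liver (SD, n = 5). After TMM scaling it lay level with liver at -0.05, while its difference from the mean of all 8 tissues was 1.78 ± 0.13 (SE). The ferritin heavy chain Fth1 was lower in spleen, at -1.22. Hpx, the haem carrier haemopexin made mainly in liver, was lower at -2.80. Cd5l and Timd4, both of tissue macrophages that include those of liver, differed by 8.55 and 6.17.

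Marginal zone and phagocyte receptor genes were higher in 13 of 14 cases and highest of 9 in 11. Gene by gene, 11 were higher and 2 lower than lung in WT mice. Summed, the list was lower in WT spleens (1696 to 2086 CPM) than in WT lung (6594 to 7960 CPM). Marco, a scavenger receptor of marginal zone macrophages, had 83.5, 83.1, 166, 101 and 80.5 RPKM in KO spleens and 112, 82.2, 147 and 59.3 RPKM in WT spleens. WT lung, whose alveolar macrophages also use Marco, had 35.8 ± 23.7 RPKM (SD, n = 5), and lung and spleen libraries overlapped, though the difference from lung passed at 1.69 ± 0.28 (SE). Cd209b, the SIGN-R1 lectin of marginal zone macrophages, had 12.1, 7.22, 6.29 and 6.78 RPKM in WT spleens and differed by 4.68 ± 0.21 (SE). Lyz2, the lysozyme of most macrophages, was higher than the mean of the other tissues at 2.81 and lower than lung at -2.33.

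Dendritic cell genes were higher in 16 of 18 cases, and 13 were highest of 9, with a median of 4.54. Irf8, a factor required by dendritic cells that B cells also express, had 132, 127, 126 and 144 RPKM in WT spleens against 11.7 ± 0.761 RPKM in WT lung (SD, n = 5). Dnase1l3, a DNase of dendritic cells and macrophages, had 54.2, 46.4, 113, 60.1 and 61.8 RPKM in KO spleens and 55.2, 56.0, 159 and 58.9 RPKM in WT spleens. Its 2 high values were those of the 2 libraries that stood apart. Neutrophil genes were higher in 15 of the 16 that passed the filter, of 18 listed, but only 10 exceeded lung. Summed, the neutrophil list had 218 to 426 CPM in WT spleens and 375 to 1436 CPM in WT lung. S100a8, a neutrophil calcium-binding protein, had 116, 74.9, 86.2 and 174 RPKM in WT spleens against 128 ± 46.0 RPKM in WT lung (SD, n = 5), and the difference from lung was -0.02 ± 0.40 (SE). The primary granule genes Mpo, Elane and Ctsg, expressed by immature neutrophils, were highest in spleen. They had no read in 5, 2 and 3 of the other tissues, and their log2 fold changes were 5.62, 4.36 and 3.35 with those at the floor. Of 18 megakaryocyte and platelet genes 17 were higher and 14 were highest of 9, with the platelet chemokines Ppbp at 6.06 and Pf4 at 2.31 ± 0.16 (SE). In KO mice 16 were higher and 11 highest of 9. Gene by gene, 16 were higher and 2 lower than lung in WT mice. Summed, the list was still lower in WT spleens (316 to 351 CPM) than in WT lung (556 to 757 CPM).

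Cell division genes were higher in spleen without exception. All 24 were higher than the mean of the other tissues and higher than lung, and 20 were highest of 9, with a median of 4.24 in KO mice and 4.30 in WT mice. Mki67, the Ki-67 protein of dividing cells, had 23.2, 39.4, 44.0, 18.5 and 24.3 RPKM in KO spleens and 29.4, 37.4, 38.5 and 30.4 RPKM in WT spleens, against 1.97 ± 0.336 RPKM in WT lung (SD, n = 5). Spleens did not overlap lung, and the log2 fold change was 6.33 ± 0.12 (SE). Summed, the list had 1253 ± 191 CPM in KO spleens (SD, n = 5) and 1365 ± 128 CPM in WT spleens (SD, n = 4), against 244 ± 17.2 CPM in WT lung (SD, n = 5). The replication genes Pcna and Tyms had the smallest differences, at 1.38 and 1.24. Of 15 stem and progenitor genes that passed, 8 were higher and 4 lower. The higher ones included Ikzf1, a lymphocyte factor as well, at 6.68, Myb at 6.50 and Kit at 2.45, and the lower ones were Gata2, Cd34, Mecom and Hlf, of which Cd34 and Mecom are also active in vessels and other organs. Gata2 turned to 0.73 with library totals alone.

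The stroma that arranges lymphocytes had its own high genes. Of 19 lymphoid stroma genes, 15 were higher in WT spleen, 2 lower and 8 highest of 9, with a median of 2.92 in KO mice and 2.81 in WT mice. Against lung alone 9 were higher and 6 lower. Madcam1 (chromosome 10, 79664574 to 79668536), the adhesion molecule of marginal sinus lining cells, had 10.4, 11.0, 11.2, 11.6 and 9.68 RPKM in KO spleens and 13.9, 11.1, 13.4 and 17.2 RPKM in WT spleens. In 6 of the 8 other WT tissues every library had 0 reads of Madcam1, and with a floor of 3 reads per library spleen was at least 38.9-fold higher than any of these. No other WT library passed 0.0379 RPKM.

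The chemokines that place T and B cells followed. Ccl19, made by T zone reticular cells, had 117, 118, 129 and 129 RPKM in WT spleens against 4.87 ± 0.484 RPKM in WT lung (SD, n = 5), and differed by 5.81 ± 0.11 (SE). Ccl21a, which has near-identical copies that can share reads, had 383, 537, 621 and 294 RPKM in WT spleens against 67.7 ± 14.4 RPKM in WT lung (SD, n = 5). Cxcl13, the chemokine of B cell follicles, had 156, 155, 167, 183 and 134 RPKM in KO spleens and 147, 154, 251 and 156 RPKM in WT spleens, against 6.10 ± 2.51 RPKM in WT lung (SD, n = 5). One value stood out, that of WT mouse 3805673, and no spleen came near lung. Coch (chromosome 12, 51593341 to 51605773), which encodes cochlin, a secreted protein of follicular dendritic cells, had 490, 447, 371 and 458 RPKM in WT spleens, while no other WT library passed 3.62 RPKM. Pdpn, the podoplanin of reticular cells, lymphatic vessels and lung alveolar cells, was lower in spleen at -2.94, with 0.942, 0.677, 1.31 and 1.18 RPKM in WT spleens against 129 ± 16.7 RPKM in WT lung (SD, n = 5).

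Transcription factors that build the spleen were still expressed in adult mice. Of 14 listed, 12 passed the filter, 9 were higher, 2 lower and 4 highest of 9, and the median of 3.48 was 1.96 with genes at 0 set at their bound. Without WT mouse 3805673 the counts were 10 higher and 3 lower with a median of 0.94. Against lung alone, with all WT spleens, 5 were higher and 4 lower, with a median of 0.14. Tlx1 (chromosome 19, 45150715 to 45156943), without which mice form no spleen, had 15.7, 22.3, 11.6, 15.2 and 11.2 RPKM in KO spleens and 17.8, 11.9, 11.1 and 15.02 RPKM in WT spleens, and at most 0.138 RPKM in any other WT library. In 3 of the other tissues Tlx1 had no read, and spleen was at least 55.5-fold higher than any of these. Nkx2-3 had 9.20, 7.62, 6.58 and 9.42 RPKM in WT spleens and at most 0.0313 RPKM elsewhere. Nr5a1, the SF-1 factor of adrenal gland, gonad and splenic vessels, had 7.53, 8.15, 4.81 and 8.50 RPKM in WT spleens and at most 0.0327 RPKM elsewhere. It entered through the rule for the largest differences, not through the list.

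Nkx2-5 and Tcf21 were shared with another organ. Nkx2-5, the heart and spleen factor, had 1.99, 2.24, 2.69 and 2.95 RPKM in WT spleens against 19.9 ± 0.865 RPKM in WT heart (SD, n = 5), and was lower than heart by a log2 fold change of -3.98. Tcf21, the capsulin factor of mesenchyme, had 63.1, 45.6, 55.9 and 57.3 RPKM in WT spleens against 49.1 ± 12.9 RPKM in WT lung (SD, n = 5), and the difference from lung was 0.16 ± 0.13 (SE, adjusted p = 0.288). Wt1, a factor of mesothelium and kidney podocytes, had 11.6, 8.79, 13.4 and 10.1 RPKM in WT spleens against 3.05 ± 0.557 RPKM in WT kidney (SD, n = 4), and differed from the mean of the 8 tissues by 6.07 ± 0.19 (SE). Hoxa5, a factor of broader use, was lower in spleen at -0.80 and turned to 0.22 with library totals alone.

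Genes of general connective tissue were low in spleen. Of 20 fibroblast matrix genes, none was higher and 17 were lower in WT spleen, with a median of -1.70, and all 20 were lower than in lung. The KO mice gave the same counts against the 8 tissues. With library totals alone, 3 were higher and 12 lower. Dcn, the proteoglycan decorin, had 31.4, 35.0, 72.7, 37.2 and 34.7 RPKM in KO spleens and 38.8, 23.0, 37.9 and 38.3 RPKM in WT spleens, against 626 ± 59.4 RPKM in WT EDL (SD, n = 5). Its log2 fold change was -3.67 ± 0.14 (SE), and KO mouse 3817943 stood above the other spleens. Col1a2, a chain of type I collagen, had 38.6, 34.6, 30.7 and 41.5 RPKM in WT spleens and differed by -1.22 ± 0.21 (SE), a call lost with library totals alone (-0.20) and with the 4 limb muscles averaged to 1 tissue (-0.04).

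Contractile genes of the capsule and of vessels went both ways. Of 14 smooth muscle genes, 4 were higher and 7 lower, with a median of -0.59, and 13 were lower than in lung. Library totals alone gave 7 higher and 3 lower than the mean of the 8 tissues, with a median of 0.41. The higher ones were Actg2 at 1.54, Tagln at 1.07, Acta2 at 0.57 and Mylk at 0.53, all contractile proteins, of which Mylk turned to -0.057 with the limb muscles averaged. Acta2, smooth muscle actin, had 55.7, 32.3, 59.7 and 77.2 RPKM in WT spleens against 230 ± 20.4 RPKM in WT lung (SD, n = 5). Rgs5, a marker of pericytes, had 2.03, 1.55, 0.985 and 1.40 RPKM in WT spleens against 139 ± 6.69 RPKM in WT heart (SD, n = 5), and differed by -5.14 ± 0.16 (SE). Every WT spleen lay below every other WT library for Rgs5.

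Endothelial genes likewise split, 5 higher and 10 lower of 18, with a median of -0.59. Library totals alone gave 9 higher and 3 lower, with a median of 0.43. Stab2, the scavenger receptor of spleen and liver sinus lining, had 31.4, 38.2, 25.6, 33.8 and 28.9 RPKM in KO spleens and 31.3, 28.6, 28.7 and 29.7 RPKM in WT spleens, against 5.37 ± 0.866 RPKM in WT liver (SD, n = 5). It alone of the list was highest of 9, at 3.78 ± 0.10 (SE) against the mean and 1.16 against liver. Pecam1, a marker of all endothelium, had 78.8, 68.3, 73.2 and 72.9 RPKM in WT spleens and 270 ± 9.19 RPKM in WT lung (SD, n = 5). The capillary gene Emcn was lower at -3.62. Lyve1, of lymphatic vessels and of liver sinusoids, had 0.332, 0.140, 0.410 and 0.390 RPKM in WT spleens against 127 ± 21.9 RPKM in WT lung (SD, n = 5). Of 10 mesothelial genes, 6 were higher and 3 lower, and 1 was highest of 9. Against lung alone 2 were higher and 8 lower, with a median of -3.48. Upk3b, a surface marker of mesothelium, was higher by 1.84 with the 2 tissues that had no read of it at the floor. It lost the call with the limb muscles averaged (0.55). The keratins Krt8, Krt18 and Krt19 were lower at -3.07, -2.06 and -1.97.

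**Figure D5:**
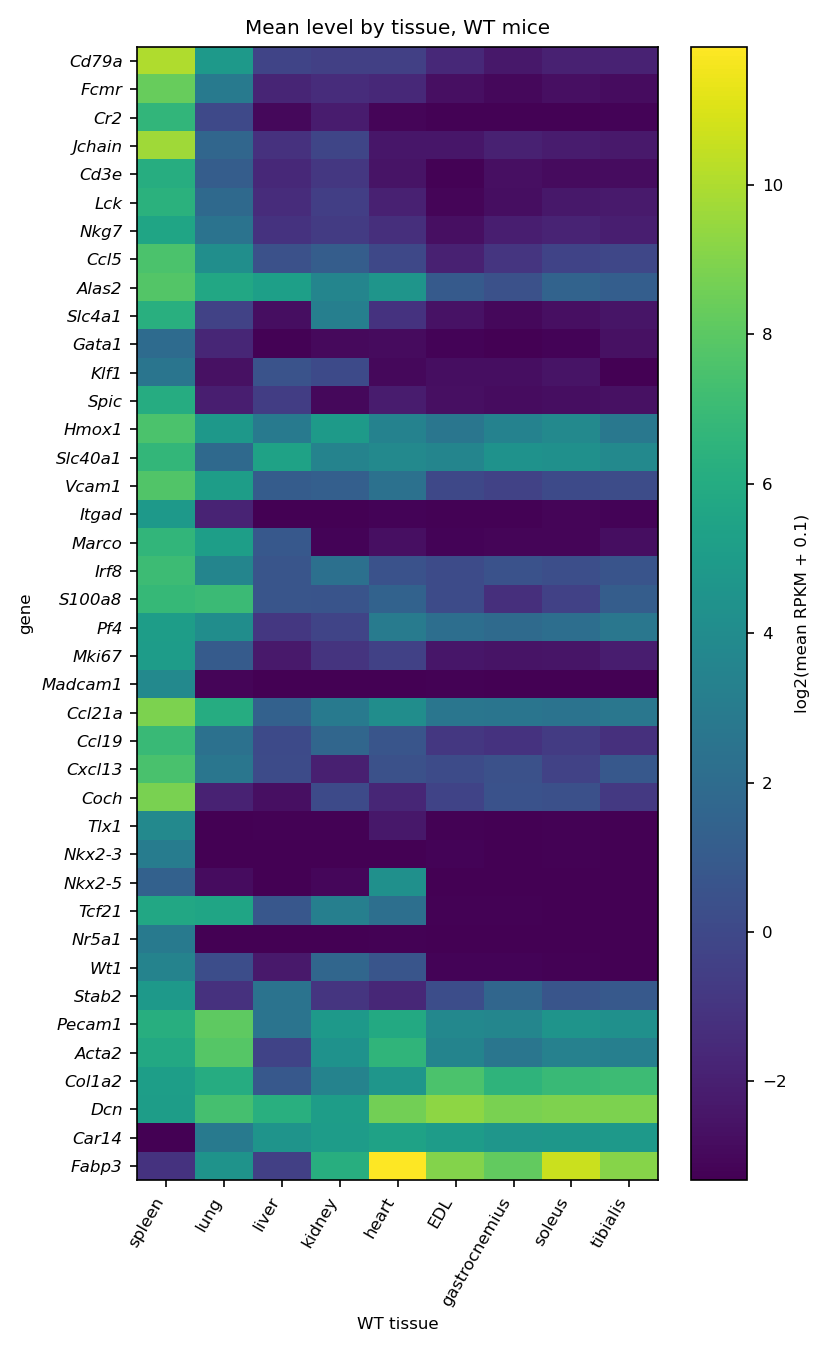
Colours give log2 of the mean RPKM plus 0.1 of named genes (rows) in the 9 WT tissues (columns, spleen first), n = 4 or 5 libraries each. Spleen is brightest for lymphocyte, macrophage and lymphoid stroma genes, shares Tcf21 and S100a8 with lung, Nkx2-5 with heart and Alas2 with lung and liver, and is darkest for Car14.

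At the other end, 577 genes were lowest in WT spleen, and 24 of them had no read in any WT spleen library. Car14, a membrane carbonic anhydrase, had 0 reads in all 4 WT spleens and 7.02 to 45.8 RPKM in every other WT library, which makes spleen at least 318-fold lower than the mean of the 8 tissues and at least 43.9-fold lower than the lowest of them. Slc38a3 (chromosome 9, 107651155 to 107668968), a glutamine transporter of liver, kidney and muscle, had 0, 0, 0.0274, 0.0330 and 0.189 RPKM in KO spleens and 0 in all WT spleens, against up to 316 RPKM in other WT libraries. Spleen was at least 399-fold lower than the mean of the 8 tissues. Fbp2, the muscle form of fructose bisphosphatase, was also at 0 in all 9 spleens. Fabp3, the fatty acid binding protein of heart and oxidative muscle, had 0.169, 0, 0.696 and 0.567 RPKM in WT spleens against 3676 RPKM in WT heart, and differed by -9.76 ± 0.36 (SE). Mlxipl, the carbohydrate response factor ChREBP, differed by -9.72 ± 0.30 (SE).

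Markers of other tissues were also measured. In WT spleens the summed markers of exocrine pancreas, which lies beside the spleen, came to 7.75 to 21.8 CPM with 3 of its 18 genes at 0 reads, those of skeletal muscle to 26.6 to 59.3 CPM, of liver cells to 15.6 to 27.1 CPM and of fat cells to 51.8 to 57.7 CPM. KO mouse 3817943 had 281 CPM of fat cell genes, against 56.1 to 59.6 CPM in the other KO spleens, and 85.9 CPM of liver cell genes. The same library had the highest Dcn value, and the part of fat genes in it was not tested. Kidney tubule and lung epithelium lists had 161 to 232 CPM and 178 to 256 CPM in WT spleens. Napsa, in both lists, encodes a protease and had 142, 139, 106 and 154 RPKM in WT spleens. Sftpc, the defining surfactant gene of lung, had 0 to 0.539 RPKM.

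Between the genotypes, no gene of 13952 passed in KO spleen against WT spleen by edgeR (0.0%; 118 at an unadjusted p under 0.05), and DESeq2 also called none (92 at an unadjusted p under 0.05). B cell, T cell and erythroid sums overlapped between the genotypes, as given above. F13a1, coagulation factor XIII A chain of platelets and macrophages, had the smallest p, with 3.90, 5.30, 3.28, 3.56 and 3.86 RPKM in KO spleens and 1.97, 2.56, 2.27 and 2.64 RPKM in WT spleens. Its groups did not overlap, with a log2 fold change of 0.72 and an adjusted p of 1. Against the mean of the 8 other tissues, F13a1 was lower in WT spleen at -0.84 and turned to 0.17 with library totals alone and to 0.064 with the limb muscles averaged. Ada, adenosine deaminase, had 6.07, 6.41, 6.64, 6.30 and 5.497 RPKM in KO spleens and 9.90, 7.45, 6.60 and 7.98 RPKM in WT spleens, with a log2 fold change of -0.40. The spleen contrast itself, spleen over the mean of 8 tissues, differed between KO and WT mice for 0 of 17151 genes by edgeR (0.0%; 419 at an unadjusted p under 0.05) and for 9 by limma voom, all lower in KO. A p that misses the threshold does not show that the genotypes were alike.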

How the data were processed

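RNA was polyA selected and sequenced from stranded libraries (KAPA Stranded mRNA-Seq, MagMax extraction), per the labels' protocols. The authors deposited estimated counts per Entrez gene, of which 85.5% of the values are whole numbers, and RPKM values, with mm10 refGene gene models per the file headers and the mm10 build per the submitters' processing notes. The aligner and the counting tool are not given in the sources used here. Deposited RPKM equal the counts per exon length and library total, and are used for levels; 22 rows of marker sequences stayed out of library sizes.

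Expected counts were rounded and tested with edgeR 4.0.16 (TMM scaling, robust quasi-likelihood fit, Benjamini-Hochberg adjustment) in R 4.3.3, with 1 mean per tissue and genotype. Genes passed a filter of 10 counts (filterByExpr, total of at least 15). limma 3.58.1 and DESeq2 1.42.0 served as alternatives. On simulated counts of 16025 genes for WT spleen against the 8 tissues, 43% of genes changed 1.5-fold and 100% of those changed 2-fold were recovered, with 9 wrong calls. The simulation gave all tissues 1 mean profile and all genes 1 dispersion, and changed only 100 genes at each fold. It therefore does not test the scaling between unlike tissues, and its rates do not carry over to the real data. Bounds for genes at 0 use a floor of 3 reads per library. A tissue with any read keeps its measured mean, which can lie under the floor. A log2 fold change with tissues at the floor is therefore not a strict lower bound. The floor covers counting error only, while SE and SD include differences between mice. The tissues came from the same mice, except that no WT spleen of mouse 3805657 and no WT kidney of mouse 3793543 was analysed. Tissues of 1 mouse deviated together only weakly (mean r of 0.0386 over 71 pairs of spleen and another tissue, 15 over 0.1). The main fit therefore has no mouse term, and a fit with a mouse term is an alternative. No 2 spleen libraries of the same genotype (16 pairs) agreed within sampling noise, and pairs across genotypes were not compared.

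Of 449 genes in 27 lists, 433 are in the tables. The members and lists were chosen with earlier results of these data known, and summed levels are given without a p for that reason. Genes named are fixed markers, the 10 largest differences each way among genes called highest or lowest at 10 CPM or more, the 3 highest and 2 lowest members of each list, the 5 largest differences from lung each way and the 5 smallest p between genotypes. Other list members are named by position in their list; Rnaset2b, Rpl26, Gm15772, Xkrx, Rhd, Kel, Icam4, Epor, Mybl1 and S1pr2 were chosen after their values were seen. A few genes that the rule names are not reported here.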

Additional observations from a re-analysis of the deposited data

Results flagged for a closer look

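Single spleens lay far from the rest of their group for 31 values, of 168 groups of 4 or 5 spleens examined by Dixon's ratio at its 95% level; chance flags about 1 in 20 groups. Of the 31, 17 belong to KO mouse 3817943 or WT mouse 3805673. KO mouse 3817943 was high for Marco (166 RPKM), Dnase1l3 (113), Ikzf1 (114), Ccl21a (734), Dcn (72.7), Lyve1 (1.23) and Car3 (55.1), and low for Itgad (21.1) and Ccr2 (7.98). It also stood out in summed mitochondrially encoded genes (92074 CPM), fat cell genes (281 CPM) and liver cell genes (85.9 CPM). WT mouse 3805673 was high for Fcmr (435 RPKM), Cd3e (101), Dnase1l3 (159) and Cxcl13 (251), and in summed mitochondrially encoded genes (138619 CPM). The cause was not tested.

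KO mouse 3793546 was high for erythroid genes: Slc4a1 (181 RPKM), Gata1 (6.93), Klf1 (12.0), Aqp1 (63.5), Rhd (30.8), Kel (14.99), Epor (8.14) and the erythroid sum without haemoglobin (5296 CPM). The neutrophil gene S100a8 (209 RPKM) was high in the same mouse.

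Other single values were Cd209b in WT mouse 3793543 (12.1 RPKM), Ccl19 in KO mouse 3805676 (146), Dcn in WT mouse 3817948 (23.0, low), Slc38a3 in KO mouse 3805666 (0.189) and summed skeletal muscle genes in KO mouse 3805666 (71.0 CPM).

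A row of the deposited counts named mFc, listed among marker sequences and not among genes, held reads in every spleen. It had 51.2, 60.2, 323, 36.8 and 111 CPM in KO spleens and 182, 41.4, 48.7 and 147 CPM in WT spleens, against at most 0.503 CPM (9 reads) in any of the 79 libraries of the other tissues. KO and WT spleens overlapped.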

How the results depend on the processing

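Scaling by library totals alone gave 11093 genes higher, 3029 lower and 224 lowest in KO spleen, and 10939, 3040 and 248 in WT spleen. With any positive pairwise difference in place of a log2 fold change of 1, KO spleen was highest for 3128 and lowest for 1554 genes, and WT spleen for 3110 and 1513; at 2 the counts were 900 and 190 in KO and 921 and 224 in WT. The contrast between genotypes called 9 genes with limma voom, and 2 (Mybl1, S1pr2) without both libraries that stood apart, an alternative chosen after seeing the data. With the mouse as a replicate block, which uses the pairing of tissues, 7015 genes were higher and 6463 lower in WT spleen, and the block moved no count by over 1.5 times. Of 1610 values of 115 named genes under the alternatives, 1564 kept their direction and call against the mean of the 8 tissues, 26 lost and 3 gained the call, and 17 turned. With library totals these were Sdc1 (0.75), Urod (0.29), Fech (0.67), Alad (0.66), Abcb10 (0.57), Uros (0.50), Cpox (0.24), Foxo3 (0.68), Gata2 (0.73), Ank1 (0.30), Hoxa5 (0.22) and F13a1 (0.17). With limb muscles averaged they were Ank1 (1.29), Sptb (0.15), Mylk (-0.057), Rnaset2b (-0.023) and F13a1 (0.064). Leaving out each mouse, WT spleen exceeded lung by 7377 to 7547 CPM for B cell, 1589 to 1660 for T cell and 12104 to 24498 for erythroid sums. KO minus WT spleen ran from -194 to 57.1 CPM for B cell (19.1 without WT mouse 3817948), -105 to 29.1 for T cell and -2842 to 9659 for erythroid sums (-1210 without KO mouse 3793546), so none of the 3 has a stable sign. In the spleen with the fewest counts, 8205964, a gene with 0 reads can lie at up to 0.366 CPM.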

Other observations

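Mybl1, a transcription factor of germinal centre B cells, had 0.916, 1.13, 2.59, 0.873 and 1.06 RPKM in KO spleens and 3.39, 1.51, 1.60 and 1.80 RPKM in WT spleens. S1pr2, the receptor that holds these cells in place, had 2.79, 3.03, 3.68, 2.58 and 3.82 RPKM in KO spleens and 6.35, 3.64, 1.65 and 5.44 RPKM in WT spleens. For both genes the highest value was that of WT mouse 3793543, the highest KO value of Mybl1 was that of KO mouse 3817943, and the KO and WT ranges overlapped. Both genes were named after their values were seen, because limma voom called the contrast between genotypes for them.

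Car1, a carbonic anhydrase of red blood cells, had 23.1, 30.9, 14.4, 15.1 and 12.8 RPKM in KO spleens and 15.96, 19.5, 22.1 and 19.1 RPKM in WT spleens, against 3.30 ± 0.797 RPKM in WT liver (SD, n = 5). Car14 of the same family had no read in WT spleen and Car3 had 0.956, 1.67, 3.15 and 1.76 RPKM there, against 1323 RPKM on average in WT EDL.

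The genes with the next smallest p between genotypes in spleen were Ccr2 and C6. Ccr2, the chemokine receptor of monocytes, had 11.8, 11.7, 7.98, 10.8 and 11.5 RPKM in KO spleens and 8.65, 8.37, 7.27 and 8.005 RPKM in WT spleens. C6, a complement component, had 20.9, 22.7, 20.7, 19.8 and 20.7 RPKM in KO spleens and 18.9, 18.3, 15.3 and 16.1 RPKM in WT spleens. Neither passed the adjustment.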
